A study of Arabidopsis thaliana with 15 samples.

Results

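The comparison described here is the interval of germination in which methylation began to fall, from 6 h to 24 h of light after stratification. It rests on 6 of the 15 MethylC-seq libraries of a time course of wild-type Arabidopsis thaliana Col-0, namely 3 libraries of 24 h SL and 3 libraries of 6 h SL, chosen by their labels alone. Seeds of both groups had been dried, sown on MS medium, held cold for 48 h and then kept under constant light at 22 °C. The groups differ in the time under light, which was 24 h for the group named 24 h SL and 6 h for that named 6 h SL. The remaining libraries are 3 of dry seed (0 h), 3 of seed at the end of stratification (48 h S) and 3 of seedlings after 48 h of light (48 h SL). The tissue label is germinating seed for 24 h SL, 6 h SL and 48 h S alike, and DNA methylation offers no marker against which it could be checked. The study describes the 3 libraries of a time point as biological replicates. DNA came from whole seeds, so fewer methylated cells and less methylation per cell cannot be told apart.

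In MethylC-seq, bisulfite turns unmethylated cytosine into a base read as thymine, and each read over a cytosine gives a methylated or an unmethylated call. The 3 libraries of 24 h SL held 97.2, 167.7 and 158.4 M calls, against 166.7, 215.1 and 208.4 M calls in the 3 libraries of 6 h SL. Replicate 1 of 24 h SL was the shallowest library of the series, with 2.27 calls per cytosine and 81.0% of cytosines covered, and the levels by context, trinucleotide, bin and window class and the counts of calls are therefore also given without it where its part in them was computed. The part of the calls that fell in gene-poor chromosome bins was 17.4, 18.6 and 19.2% at 24 h SL, against 20.6, 18.7 and 19.3% at 6 h SL. CHH level where CG and CHG methylation were both below 1%, a measure of unconverted cytosines and of base errors, was 0.414, 0.285 and 0.270% at 24 h SL, against 0.286, 0.271 and 0.273% at 6 h SL. Replicate 1 of 24 h SL thus stood apart from the other libraries of the comparison in depth, in its coverage of gene-poor sequence and in its background.

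In plants, cytosines are methylated in the sequence contexts CG, CHG and CHH, where H is A, C or T. MET1 copies CG methylation after replication, and CMT3 maintains CHG methylation together with methylated histone H3. CHH methylation has no methylated partner on the other strand and must be set anew, by DRM2 guided by 24-nt siRNAs (RNA-directed DNA methylation, RdDM) or by CMT2 in heterochromatin, which prefers CAA and CTA. RdDM acts mainly at short transposons and near genes in the chromosome arms, CMT2 mainly at long transposons around the centromeres. The comparison asks which of these contexts and which loci were the first to lose methylation around germination.

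The sequences of 4 of the 300-bp windows with the largest falls in CHH methylation (rank 1, 2, 3 and 7 of the windows called further on, the last of them before a gene whose upstream region was called as well) are shown so that their cytosines can be seen. They were read from the RefSeq TAIR10.1 sequence, and every cytosine position of the deposited table, made on TAIR10, held a cytosine there. Capitals mark the CHH cytosines, C for those of the strand shown and G for those of the other strand, and all other bases are in lower case.
chr1:13167001-13167300, plus strand: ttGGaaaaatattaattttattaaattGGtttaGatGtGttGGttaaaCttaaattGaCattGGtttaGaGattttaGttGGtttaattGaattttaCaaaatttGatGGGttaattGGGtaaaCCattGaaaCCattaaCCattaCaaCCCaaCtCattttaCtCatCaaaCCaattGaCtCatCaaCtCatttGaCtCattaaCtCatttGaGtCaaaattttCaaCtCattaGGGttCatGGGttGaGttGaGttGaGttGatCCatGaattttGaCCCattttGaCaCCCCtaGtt
chr3:18861001-18861300, plus strand: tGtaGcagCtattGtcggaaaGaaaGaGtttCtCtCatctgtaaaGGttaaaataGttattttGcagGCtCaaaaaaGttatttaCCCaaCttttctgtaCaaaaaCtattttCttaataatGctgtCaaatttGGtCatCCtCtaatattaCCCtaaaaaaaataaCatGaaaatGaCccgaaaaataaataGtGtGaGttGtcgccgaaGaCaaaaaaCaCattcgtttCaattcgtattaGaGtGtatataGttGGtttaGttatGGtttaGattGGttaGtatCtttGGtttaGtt
chr4:9570601-9570900, plus strand: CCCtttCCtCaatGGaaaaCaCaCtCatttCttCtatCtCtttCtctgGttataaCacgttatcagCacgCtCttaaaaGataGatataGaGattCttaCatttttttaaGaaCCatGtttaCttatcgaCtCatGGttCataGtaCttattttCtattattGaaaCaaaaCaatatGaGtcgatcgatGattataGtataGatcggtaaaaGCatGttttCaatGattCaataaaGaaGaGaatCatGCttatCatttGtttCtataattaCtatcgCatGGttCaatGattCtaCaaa
chr5:5801701-5802000, plus strand: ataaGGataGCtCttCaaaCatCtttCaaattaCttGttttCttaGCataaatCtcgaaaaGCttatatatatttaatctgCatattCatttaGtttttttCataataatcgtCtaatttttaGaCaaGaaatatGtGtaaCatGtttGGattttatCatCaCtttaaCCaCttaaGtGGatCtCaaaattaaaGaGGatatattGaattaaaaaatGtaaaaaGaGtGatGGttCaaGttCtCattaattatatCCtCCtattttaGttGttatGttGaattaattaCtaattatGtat
The window on chromosome 1 held 91 CHH cytosines and neither a CG nor a CHG cytosine. The window on chromosome 5 held 66 CHH cytosines, 4 CG cytosines and 2 CHG cytosines over both strands. Of the CHH cytosines with at least 5 calls in both groups, 25 of 25 were lower at 24 h SL in the window on chromosome 1, and 38 of 45 in the window on chromosome 5. In the window on chromosome 4 the count was 18 of 23. In the window on chromosome 3, 40 of 67 were lower at 24 h SL, 1 was higher and 26 had the same level in both groups. These windows were chosen for their falls in the same libraries, and neighbouring cytosines can share reads, so the counts are a description. Within the windows the lower levels were not confined to a few cytosines or to 1 strand. On the strand shown, the window on chromosome 1 had 30.3% CHH methylation at 24 h SL against 71.8% at 6 h SL, and on the other strand 49.7% at 24 h SL against 91.7% at 6 h SL.

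Methylation was lower at 24 h SL in all 3 contexts, and the relative fall was largest in CHH, smaller in CHG and slight in CG. Levels are first given as means over 300-bp windows, each window counting equally. A window needed at least 3 cytosines with a call in any library and at least 20 calls in every library of the series. Mean mCHH was 5.38, 5.01 and 5.22% at 24 h SL, against 6.07, 5.82 and 5.96% at 6 h SL. Mean mCHG was 9.16, 8.87 and 9.02% at 24 h SL, against 9.61, 9.42 and 9.52% at 6 h SL. Mean mCG was 24.4, 24.0 and 24.1% at 24 h SL, against 24.6, 24.5 and 24.6% at 6 h SL. In each context every library of 24 h SL lay below every library of 6 h SL. mCHH averaged 5.20 ± 0.19% at 24 h SL, against 5.95 ± 0.12% at 6 h SL (SD, n = 3 each), a relative change of -12.6%. The relative change was -5.21% for mCHG and -1.52% for mCG.

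With 3 against 3 libraries, an exact 2-sided permutation test cannot go below p = 0.1, and it gave p = 0.1 in each context. The 3 libraries of 24 h SL were therefore also compared with the 9 libraries of 0 h, 48 h S and 6 h SL in an exact permutation test, which can reach p = 0.00455 over 220 arrangements and shares its 24 h SL libraries with the first. Mean mCHH fell by 0.667 points relative to these 9 libraries, mCHG by 0.449 points and mCG by 0.313 points, each with p = 0.00455 in the exact permutation test (adjusted p = 0.00455 over the 3 contexts). Without replicate 1 of 24 h SL the falls relative to 6 h SL were larger, at -0.836 points for mCHH, -0.568 points for mCHG and -0.472 points for mCG.

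The contexts did not fall in proportion. The log2 ratio of mCHH to mCHG was -0.77, -0.82 and -0.79 at 24 h SL, against -0.66, -0.69 and -0.68 at 6 h SL. For mCHH to mCG the ratio averaged -2.22 at 24 h SL, against -2.05 at 6 h SL, and that of mCHG to mCG -1.42 at 24 h SL, against -1.37 at 6 h SL. None of these 3 ratios overlapped between the groups, and each gave p = 0.00455 against the 9 earlier libraries in the exact permutation test. CHH methylation thus fell more than CHG methylation, and CHG more than CG, in relative terms. At 48 h SL mean mCHH was 4.05%, against 5.20% at 24 h SL, whereas mCHG was 8.90% against 9.02% and mCG 24.1% against 24.2%. The background was higher at 48 h SL, with a mean of 0.561% against 0.323% at 24 h SL. With it subtracted, mCHH was 3.49% at 48 h SL against 4.88% at 24 h SL, mCHG 8.34% against 8.69% and mCG 23.5% against 23.9%.

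**Figure D1:**
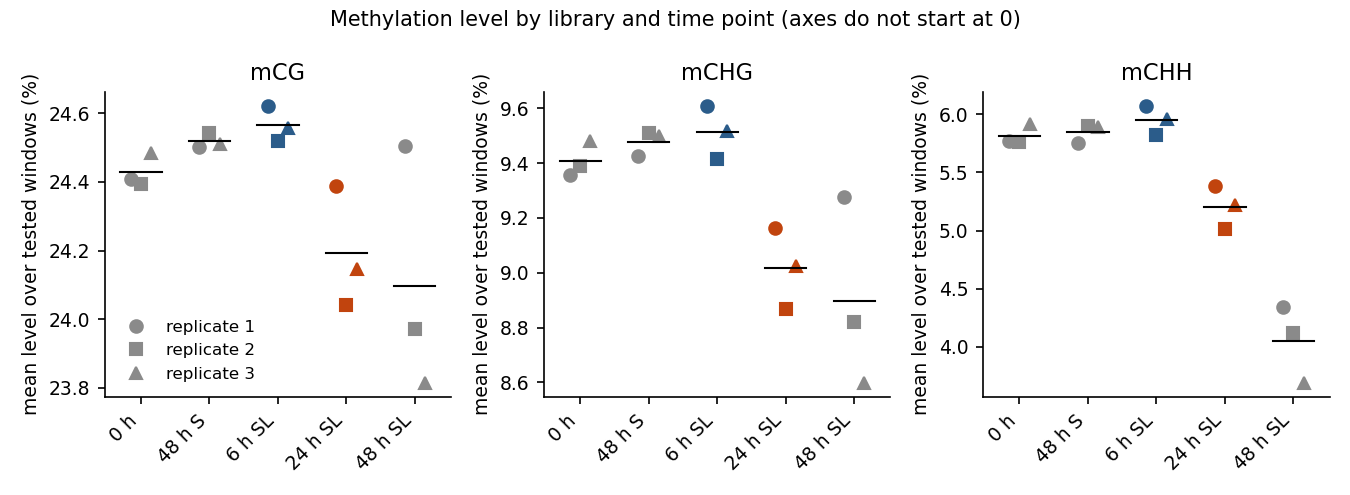
Mean methylation level over tested 300-bp windows (%, vertical axes that do not start at 0) in every library, in order of time from dry seed to seedling, with a panel for each context. Points are libraries with a symbol for each replicate and bars are means of 3 libraries. The 3 libraries of 24 h SL sit below all 9 earlier libraries in each panel, and only mCHH has all 3 libraries of 48 h SL below all 3 of 24 h SL.

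Levels over all calls, in which well covered sequence counts more, gave larger and less even differences. mCHH over all calls was 5.01, 4.99 and 5.49% at 24 h SL, against 6.88, 5.75 and 6.31% at 6 h SL, a fall of 1.15 points without overlap (p = 0.1, exact permutation test). mCHG over all calls was 9.59, 9.75 and 10.5% at 24 h SL against 12.4, 10.5 and 11.3% at 6 h SL. mCG over all calls was 24.8, 25.1 and 26.1% at 24 h SL against 28.5, 25.96 and 27.1% at 6 h SL. Here mCHG and mCG of the groups overlapped, with p = 0.2 in the exact permutation test. Replicate 1 of 6 h SL, which had the largest part of its calls in gene-poor bins among the 6 libraries, had the highest level of the 6 in every context. Against the 9 earlier libraries the falls were 0.874 points in mCHH (p = 0.0136), 1.07 points in mCHG (p = 0.0364) and 1.39 points in mCG (p = 0.0409) in the exact permutation test, with an adjusted p of 0.0409 over the 3 contexts. Without replicate 1 of 24 h SL these p values were 0.0727, 0.164 and 0.164, and without replicate 2 they were 0.0727, 0.127 and 0.127. The Wilson 95% interval of a genome-wide level spanned at most 0.0483 points. Such intervals cover counting error only, and the spread between libraries set the precision.

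The fall in CHH methylation was seen in every CHH trinucleotide. Over all calls CAA, a preferred site of CMT2, had 7.64, 7.69 and 8.38% at 24 h SL against 10.2, 8.74 and 9.46% at 6 h SL. CTA, the other preferred site, had 8.34, 8.48 and 9.24% at 24 h SL against 11.4, 9.75 and 10.5% at 6 h SL. CCC, among the least methylated, had 3.16, 3.14 and 3.52% at 24 h SL against 4.54, 3.70 and 4.14% at 6 h SL. The groups did not overlap in 9 of 9 CHH trinucleotides, and the relative changes ran from -16.5% (CAA) to -20.7% (CCC). Against the 9 earlier libraries adjusted p was 0.0136 in each of the 9 (exact permutation test). All 9 means were still lower at 24 h SL without its replicate 1.

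The relative falls of the trinucleotides differed by little, and CAA kept more of its methylation than CHH as a whole. With every window counting equally, the relative change was -10.7% at CAA and -11.5% at CTA, against -13.2 to -13.7% at the other trinucleotides with A or T in second place and -14.7 to -15.3% at those with C in second place. These levels are means over windows with at least 5 calls of the trinucleotide in every library. The windows used thus differ between trinucleotides and from those used for all CHH. On this scale the log2 ratio of CAA to all CHH was 0.62, 0.63 and 0.62 at 24 h SL against 0.58, 0.60 and 0.59 at 6 h SL. For CCC the same ratio was -0.81, -0.80 and -0.78 at 24 h SL against -0.75, -0.76 and -0.74 at 6 h SL. These ratios did not overlap between the groups, and 6 of the 9 trinucleotides had a ratio with adjusted p = 0.00682 against the 9 earlier libraries (exact permutation test), higher at 24 h SL for CAA and lower for CTC, for CTT and for the 3 with C in second place. Over all calls only CTC passed, with a log2 ratio of -0.27 at 24 h SL, against -0.24 at 6 h SL (adjusted p = 0.0409). For CTA the groups overlapped in this ratio both over all calls and with equal windows.

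**Figure D2:**
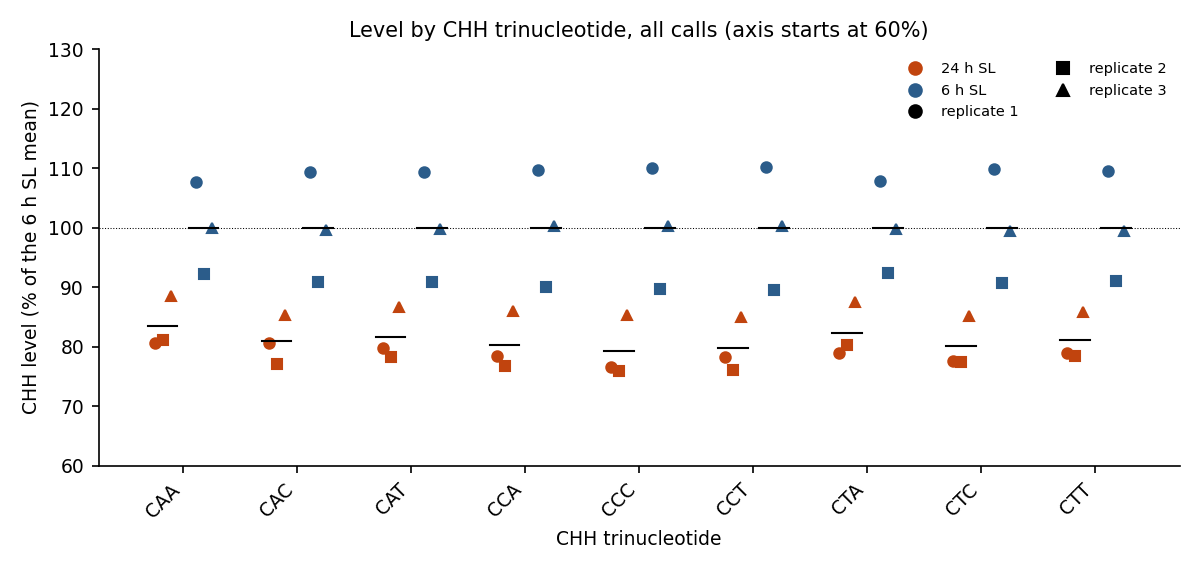
CHH level over all calls by trinucleotide, each library as a percentage of the 6 h SL mean of that trinucleotide (vertical axis starting at 60%), with 24 h SL left of 6 h SL. Points are libraries and bars are means of 3 libraries. In 9 of 9 trinucleotides the highest library of 24 h SL sits below the lowest of 6 h SL, and the means of 24 h SL are 16.5 to 20.7% below those of 6 h SL.

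The fall in CHH methylation was spread over the whole genome. On each of chromosomes 1 to 5 the groups did not overlap, and the relative change lay between -12.1% (chromosome 4) and -12.9% (chromosome 2). In gene-poor bins, 500-kb stretches with under 35% of their bases in protein-coding genes, mCHH was 17.0, 15.98 and 16.7% at 24 h SL against 19.2, 18.5 and 18.9% at 6 h SL. In gene-rich bins it was 2.71, 2.49 and 2.59% at 24 h SL against 3.05, 2.92 and 2.98% at 6 h SL. The relative change was -12.2% in gene-poor and -13.1% in gene-rich bins, each with p = 0.00455 against the 9 earlier libraries (exact permutation test). Of 240 bins, 240 had a lower mean at 24 h SL, and in 205 (85.4%) the groups did not overlap, among them 48 of 48 gene-poor bins. mCHH fell by 2.53 points in gene-poor bins and by 0.447 points in gene-rich bins without replicate 1 of 24 h SL.

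mCG and mCHG were compared in the same bins. mCG in gene-poor bins averaged 69.8 ± 0.24% at 24 h SL, against 71.3 ± 0.11% at 6 h SL (SD, n = 3 each), without overlap. mCG in gene-rich bins was 15.2, 14.9 and 15.0% at 24 h SL against 15.2, 15.1 and 15.2% at 6 h SL, and the groups overlapped. mCHG in gene-poor bins averaged 40.05 ± 0.527% at 24 h SL, against 42.2 ± 0.375% at 6 h SL (SD, n = 3 each), a relative change of -5.01%, and the relative change in gene-rich bins was -5.70%. The overlap in mCG of gene-rich bins came from replicate 1 of 24 h SL alone, as its replicates 2 and 3 lay below all 3 libraries of 6 h SL. Against the 9 earlier libraries mCG of gene-rich bins gave p = 0.0545 with equal windows, p = 0.0455 over all calls and p = 0.0318 with gene-poor bins bounded at 25% (exact permutation test), so whether it passed depended on the setting.

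Windows were next sorted by their CHH level at 0 h and 48 h S, libraries that take no part in the comparison of 24 h SL with 6 h SL. Windows below 1% CHH, 292047 of 384799, showed no fall, with 0.409, 0.283 and 0.266% at 24 h SL against 0.282, 0.270 and 0.271% at 6 h SL. In the 27984 windows at 10 to 20% mCHH was 15.2, 14.3 and 14.8% at 24 h SL against 17.1, 16.3 and 16.8% at 6 h SL. In the 10931 windows at 40% and above it was 46.0, 44.3 and 46.5% at 24 h SL against 55.0, 53.4 and 54.1% at 6 h SL. Falls in points thus grew with the level, at -1.13 points (5 to 10%), -1.96 points (10 to 20%), -3.08 points (20 to 30%), -5.15 points (30 to 40%) and -8.55 points (40% and above). The relative change did not follow the level throughout, at -14.5% (5 to 10%), -11.7% (10 to 20%), -12.5% (20 to 30%), -14.7% (30 to 40%) and -15.8% (40% and above). The log2 ratio of the class at 40% and above to that at 10 to 20% was 1.60, 1.64 and 1.65 at 24 h SL against 1.68, 1.71 and 1.69 at 6 h SL, without overlap (p = 0.1, exact permutation test). Falls were 8.77 points at 40% and above and 2.18 points at 10 to 20% without replicate 1 of 24 h SL.

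Within a class most windows moved the same way. Of the windows at 40% and above, 93.9% had a lower mean at 24 h SL, with a median change of -8.47 points and quartiles of -12.2 and -4.86 points. Every 24 h SL library lay below every 6 h SL library in 40.5% of these windows, against 7.12% of all tested CHH windows, and the reverse was seen in 0.192%, against 3.55% of all. In windows at 10 to 20%, 74.9% had a lower mean at 24 h SL and 14.9% were lower without overlap. The level at 6 h SL was itself slightly above that at 48 h S in the class at 40% and above, at 54.2% and 52.9%, without overlap between the 3 libraries of each (p = 0.1, exact permutation test).

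Windows without CAA and CTA bias lost more. The bias ratio of a window is its level at CAA and CTA as a percentage of its level at the other trinucleotides with A or T in second place, at 0 h and 48 h S, and it is high where CMT2 is the main enzyme of CHH methylation. In the 15590 windows with a ratio of at most 125% mCHH was 33.3, 32.0 and 33.6% at 24 h SL against 40.2, 38.8 and 39.4% at 6 h SL, a relative change of -16.4%. In the 45589 windows with a ratio of at least 200% it was 19.9, 18.7 and 19.4% at 24 h SL against 22.1, 21.3 and 21.8% at 6 h SL, a relative change of -11.1%. The log2 ratio of the biased to the unbiased class was -0.74, -0.77 and -0.79 at 24 h SL against -0.86, -0.87 and -0.85 at 6 h SL, without overlap (p = 0.1, exact permutation test). The 0 h and 48 h S libraries set these classes, so no test against the earlier libraries is given for them. Without replicate 1 of 24 h SL the falls were 6.66 points in unbiased and 2.68 points in biased windows, and the difference in this log2 ratio was 0.08. Unbiased windows are also the more methylated ones, so the classes were compared again within bands of level. The band at 40% and above leaves the level unmatched. There the 6 h SL mean was 57.0% in 6790 unbiased windows and 44.0% in 287 biased windows. At 10 to 20% CHH the relative change was -17.0% in unbiased and -10.4% in biased windows, at 20 to 30% -16.5% and -11.2%, at 30 to 40% -16.9% and -12.2%, and at 40% and above -16.2% and -13.0%. At each of these 4 levels the log2 ratio of the classes was higher at 24 h SL than at 6 h SL without overlap (p = 0.1 each, exact permutation test). Among unbiased windows the relative change was thus much the same at all 4 levels.

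**Figure D3:**
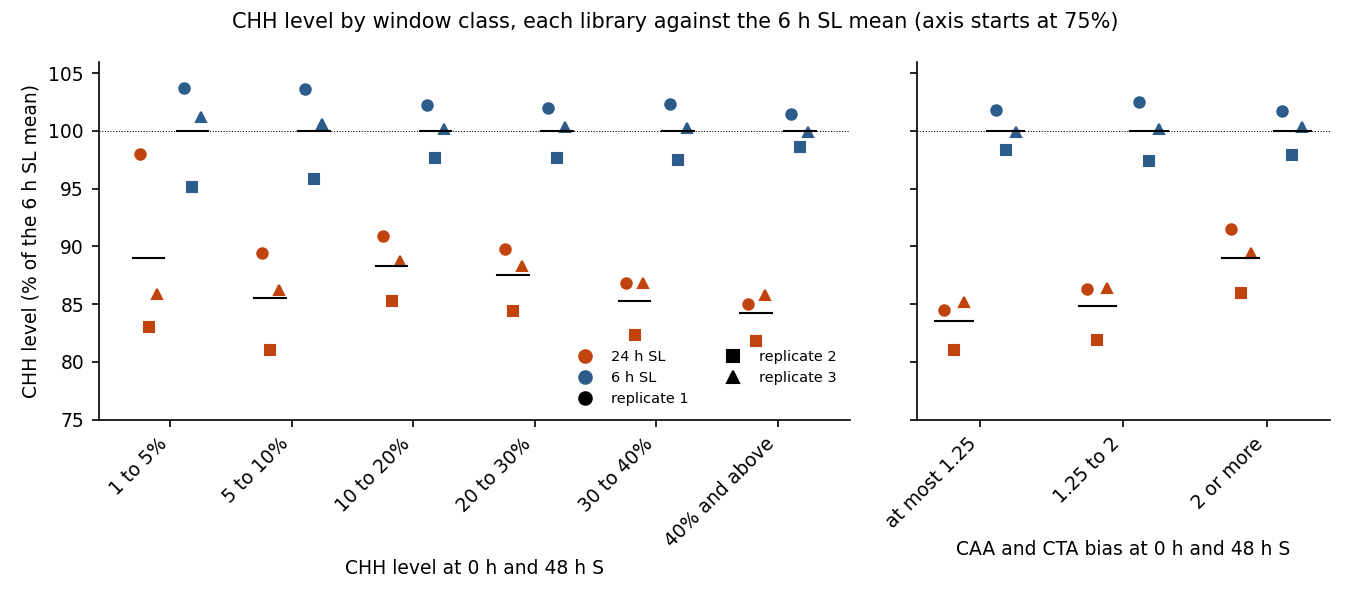
CHH level of window classes, each library as a percentage of the 6 h SL mean of its class (vertical axis starting at 75%), with 24 h SL left of 6 h SL. Points are libraries and bars are means of 3 libraries, with classes set at 0 h and 48 h S by CHH level (left panel) and by CAA and CTA bias (right panel). The 24 h SL means sit 11.7% below those of 6 h SL at 10 to 20% CHH and 15.8% below at 40% and above, and 16.4% below in the class with the lowest bias against 11.1% in that with the highest. At 1 to 5% replicate 1 of 24 h SL overlaps the libraries of 6 h SL.

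In windows with a bias ratio of at least 200% mCG averaged 90.5 ± 0.29% at 24 h SL, against 92.6 ± 0.14% at 6 h SL (SD, n = 3 each), a fall of 2.14 points without overlap. In unbiased windows mCG was 68.6, 68.0 and 68.6% at 24 h SL against 69.4, 68.6 and 69.0% at 6 h SL, and the groups overlapped. mCHG fell in both, by 3.00 points in biased and by 3.14 points in unbiased windows, without overlap. Whether the falls of mCG differed between the classes was not tested.

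By position relative to genes, windows upstream of protein-coding genes and windows outside genes fell more than pseudogenes in relative terms. Among windows at 10% CHH or more, so did gene bodies. These differences were not tested, and the sets were not matched for level or bias. In this annotation pseudogenes include most transposon-derived genes. A window belonged to the feature that held its midpoint, and upstream here means the 1000 bp before the start of a gene. Among windows at 10% CHH or more, those upstream of genes had 28.9, 27.8 and 29.2% at 24 h SL against 34.9, 33.5 and 34.2% at 6 h SL, a relative change of -16.3%. Pseudogene windows had 20.8, 19.4 and 20.2% at 24 h SL against 23.0, 22.1 and 22.7% at 6 h SL, a relative change of -10.9%. Windows outside genes and upstream regions changed by -14.3% and gene bodies by -14.5%, and the groups did not overlap in any of these sets. Over all tested gene body windows, nearly all of them with little CHH methylation, mCHH was 0.992, 0.856 and 0.871% at 24 h SL against 1.01, 0.958 and 0.980% at 6 h SL. Here the groups overlapped through replicate 1 of 24 h SL alone, the library with the highest background. Gene-rich bins held 24084 of the windows at 10% CHH or more, and these changed by -15.8%, against -12.3% in the 54562 windows of gene-poor bins. The log2 ratio of gene-poor to gene-rich windows was -0.40, -0.43 and -0.43 at 24 h SL against -0.48, -0.48 and -0.47 at 6 h SL, without overlap (p = 0.1, exact permutation test).

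The fall was seen at every distance from gene starts. In the bin from 500 to 400 bp before the start of 27444 protein-coding genes, near the peak of the profile, mCHH over all calls was 4.28, 4.10 and 4.60% at 24 h SL against 5.83, 4.80 and 5.44% at 6 h SL. In the first 100 bp after the start it was 1.40, 1.31 and 1.39% at 24 h SL against 1.74, 1.43 and 1.59% at 6 h SL. The groups did not overlap in 20 of 20 bins before and 20 of 20 bins after the start. The relative change lay between -13.6 and -19.7% before the start and between -14.0 and -17.8% after it. For CHG and CG over all calls the groups overlapped in all 20 bins before the start. After it 24 h SL was lower without overlap in 7 of 20 bins for CHG and in 11 of 20 for CG. With windows counting equally, mCHG upstream of genes was 6.84, 6.58 and 6.73% at 24 h SL against 7.30, 7.04 and 7.19% at 6 h SL, without overlap. The groups overlapped in mCG of upstream windows on that scale too.

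**Figure D4:**
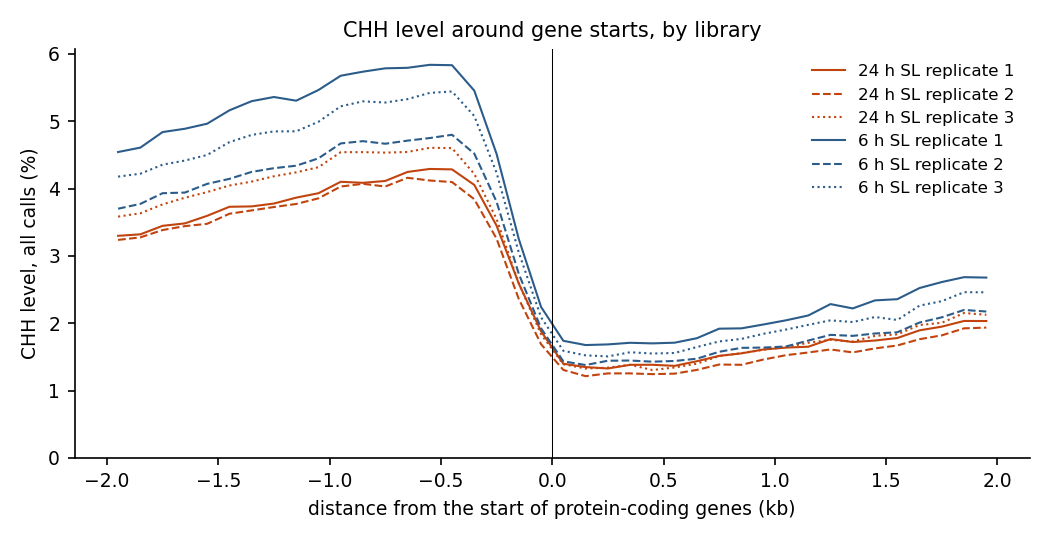
CHH level over all calls (%, vertical axis) against the distance from the start of protein-coding genes (kb, in bins of 100 bp), with a line for each library of 24 h SL and 6 h SL. All 3 lines of 24 h SL sit below all 3 lines of 6 h SL in every bin. In the bin from 500 to 400 bp before the start the means are 4.33% at 24 h SL, against 5.36% at 6 h SL.

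At the level of single 300-bp windows, few changes were called, and in each context all calls were falls. The test was a quasi-binomial model with Benjamini-Hochberg adjustment, and a window was called at an adjusted p below 0.05 and a difference of at least 20 points. At any p, 280 CHH, 158 CHG and 74 CG windows fell by at least 20 points, and 4, 8 and 47 rose by as much. Tested windows had a median of 182 CHH, 37 CHG and 35 CG calls in their shallowest library. The counts called therefore do not compare the contexts evenly. In CHH 99 of 384799 windows were called lower at 24 h SL (0.0257%) and 0 were called higher, although 11179 windows were higher at an unadjusted p below 0.05 and limma called 249 lower and 3 higher. In CHG 2 of 298662 windows were called lower (0.00067%) and 0 higher, with 3633 windows higher at an unadjusted p below 0.05 and 0 called in either direction by limma. In CG 1 of 262767 windows was called lower (0.000381%) and 0 higher, with 3473 windows higher at an unadjusted p below 0.05 and 3 called lower and 1 higher by limma. With a minimum of 10 points in place of 20, 300 CHH windows were lower and 0 higher. Called windows within 300 bp of each other were to be merged, and the 99 CHH windows formed 99 regions.

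The count of called CHH windows rested on single libraries. Without replicate 1 of 24 h SL, 115 windows were called, of which 65 were among the 99. Without replicate 2 of 24 h SL 23 were called (11 of the 99) and without replicate 1 of 6 h SL 34 (27 of the 99). Without replicate 3 of 24 h SL, replicate 2 of 6 h SL or replicate 3 of 6 h SL the counts were 83, 101 and 101, with 30, 56 and 50 of the 99 called again. With calls thinned to the depth of the shallowest library 1 CHH window was called.

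The called windows were highly methylated in all earlier libraries, and their mean was lower still at 48 h SL. A high starting level follows in part from the filter, as a call needs a fall of at least 20 points. Their mean CHH level was 43.3, 40.4 and 43.5% in the libraries of 24 h SL, against 66.4, 64.8 and 63.7% in those of 6 h SL, values that chose them and are given as a description. In libraries that had no part in the comparison the mean was 58.9 ± 0.789% at 0 h and 58.0 ± 0.267% at 48 h S, and 32.6 ± 1.85% at 48 h SL (SD, n = 3 each). The windows were chosen in part for a low level at 24 h SL, so its position below 0 h and 48 h S is a description as well. The level at 6 h SL was above that at 48 h S by a median of 6.97 points, but the windows were chosen in part for a high level at 6 h SL. Set against the 6 libraries of 0 h and 48 h S, the same model called 26 CHH windows, a comparison that shares its 24 h SL libraries with the first.

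**Figure D5:**
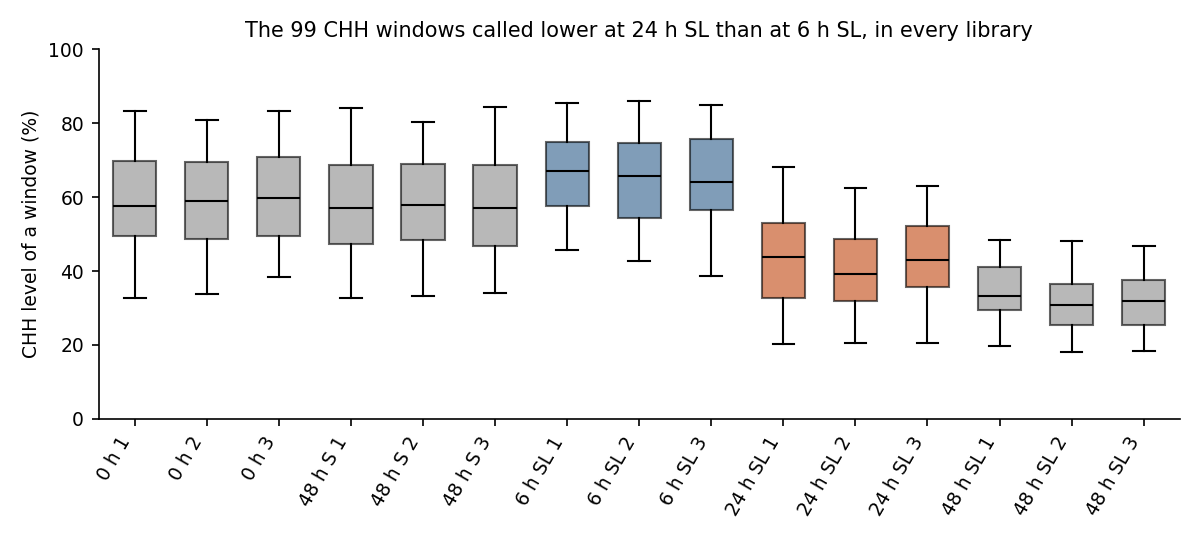
CHH level (%, vertical axis from 0 to 100) of the 99 CHH windows called lower at 24 h SL than at 6 h SL, in each of the 15 libraries. Boxes span the quartiles with the median as a line, and whiskers reach the 5th and 95th percentiles of the windows. The means over the windows are 42.4% at 24 h SL, against 65.0% at 6 h SL, with 58.9% at 0 h, 58.0% at 48 h S and 32.6% at 48 h SL.

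Of the 99 windows, 87 came from the class at 40% CHH and above (0.796% of that class), 11 from 30 to 40% (0.103%) and 1 from 20 to 30%. A call needs a fall of at least 20 points, which favours windows that start high, so this split follows in part from the filter. The bias ratio, set at 0 h and 48 h S, was at most 125% in 83 of 99 (83.8%), against 62.1% of all tested windows at 40% and above. No called window had a ratio of at least 200%, against 2.63% of tested windows at 40% and above, a rate at which few would be found among 99. By position, 18 of 99 (18.2%) lay in gene-poor bins and 33 of 99 (33.3%) upstream of a protein-coding gene, against 36.7% and 23.9% of tested windows at 40% and above. These shares are a description and were not tested. They are not matched for level, as the median CHH level at 0 h and 48 h S was 57.8% in the called windows, against 50.7% in tested windows at 40% and above. A further 59 lay outside genes and upstream regions, 5 in gene bodies and 2 in pseudogenes. Chromosomes 1 to 5 held 19, 16, 22, 12 and 30 of them. The median GC content was 29.0%, against 28.3% of tested windows at 40% and above. CHG methylation of the 49 called windows with enough CHG calls averaged 56.4% at 24 h SL, against 67.8% at 6 h SL, and CG methylation of 63 windows averaged 77.6% at 24 h SL, against 81.3% at 6 h SL.

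The window with the largest fall (chr1:13167001-13167300, TAIR10, the first sequence shown) lay in a gene-poor bin, with no annotated feature, and was 2638 bp from the nearest gene start. Its CHH level was 29.7, 48.1 and 53.1% at 24 h SL against 74.7, 86.9 and 77.6% at 6 h SL, a fall of 37.3 points in summed calls (adjusted p = 0.0374). The groups lay far apart, and the 6 libraries of 0 h and 48 h S had 64.6 to 79.9%. Coverage was thin, as 25 of its 91 CHH cytosines had at least 5 calls in both groups, against 67 of 67 in the next window. The ranking by size of fall does not weigh coverage.

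The next window, chr3:18861001-18861300, lay outside genes with BEH1, a homolog of the brassinosteroid-responsive factor BES1, as the nearest gene, and had the smallest adjusted p of all. Its CHH level was 8.63, 24.9 and 41.2% at 24 h SL against 68.7, 54.9 and 67.7% at 6 h SL, a fall of 37.0 points (adjusted p = 7.97e-05). The libraries of 24 h SL differed widely, with the shallow replicate 1 the lowest, and all 3 lay below those of 6 h SL. CHG methylation there was 57.8% at 24 h SL, against 74.0% at 6 h SL.

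In chr4:9570601-9570900, 667 bp upstream of the start of AT4G17000, mCHH was 72.2, 35.7 and 58.7% at 24 h SL against 85.3, 81.6 and 75.2% at 6 h SL (a fall of 32.0 points, adjusted p = 0.0428). Here replicate 1 of 24 h SL came close to the lowest library of 6 h SL, and 23 of 72 CHH cytosines had at least 5 calls in both groups. In chr2:6002101-6002400, in a gene-poor bin far from any gene start, it was 45.4, 32.4 and 40.7% at 24 h SL against 75.8, 60.6 and 65.0% at 6 h SL (a fall of 28.1 points, adjusted p = 0.0146). In chr5:16257901-16258200, outside genes, it was 46.3, 36.9 and 55.3% at 24 h SL against 79.5, 70.8 and 71.2% at 6 h SL (a fall of 27.1 points, adjusted p = 0.0206). Neither the window on chromosome 2 nor that on chromosome 5 showed overlap between the groups.

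Several leading windows lay upstream of genes. AT1G19390, a gene of the wall-associated kinase family, had chr1:6704101-6704400 before its start, with 18.5, 42.8 and 44.0% at 24 h SL against 56.9, 73.4 and 57.1% at 6 h SL (a fall of 26.9 points, adjusted p = 0.0497). AT5G17600, a RING/U-box gene of the kind that encodes ubiquitin ligases, had chr5:5801701-5802000 before its start, the last sequence shown, with 61.0, 50.6 and 51.6% at 24 h SL against 83.2, 72.1 and 78.7% at 6 h SL (a fall of 26.5 points, adjusted p = 0.00684). Upstream of AT4G19270, an uncharacterized gene, chr4:10538101-10538400 had 21.0, 43.8 and 52.8% at 24 h SL against 69.9, 78.4 and 66.9% at 6 h SL (a fall of 26.05 points, adjusted p = 0.0218). All 3 windows were separated between the groups, with replicate 1 of 24 h SL the lowest library in that of AT1G19390 and that of AT4G19270 and the highest in that of AT5G17600.

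Upstream of AT4G16545, annotated as a small heat shock protein, chr4:9320401-9320700 was almost fully methylated before the fall. It had 87.0, 65.6 and 73.1% at 24 h SL against 96.6, 97.4 and 97.2% at 6 h SL (a fall of 26.05 points, adjusted p = 0.0472), and the 6 libraries of 0 h and 48 h S had 95.5 to 99.3%. Upstream of SYN2, a cohesin subunit gene of the Rad21/Rec8 kind, chr5:16364701-16365000 had 35.3, 19.2 and 40.8% at 24 h SL against 60, 56.1 and 54.5% at 6 h SL (a fall of 25.9 points, adjusted p = 0.0117). The remaining 2 of the 12 leading windows were chr3:16212901-16213200, with hda10 as the nearest gene and a fall of 26.3 points (adjusted p = 0.0340), and chr2:13660801-13661100, over a noncoding exon of AT2G32150 with a fall of 26.04 points (adjusted p = 0.00684). In the first of them 6 h SL was uneven, with 45.3, 59.9 and 32.0%.

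The called CG window was chr3:13541101-13541400, in the pseudogene AT3G33004, with mCG of 58.5, 48.0 and 58.9% at 24 h SL against 79.6, 84.6 and 82.4% at 6 h SL (a fall of 27.9 points, adjusted p = 0.000804). Its CHH level was low, at 6.05% at 24 h SL, against 11.4% at 6 h SL. The 6 libraries of 0 h and 48 h S had 72.4 to 80.6% mCG, and 48 h SL averaged 61.5%, so the lower level was also found a day later. It was not called without replicate 2 of 24 h SL or without replicate 2 of 6 h SL.

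The CHG windows were chr1:2986201-2986500, over a noncoding exon of the nicotianamine synthase gene NAS3, with mCHG of 40, 39.2 and 48.9% at 24 h SL against 78.2, 66.4 and 69.9% at 6 h SL (a fall of 28.3 points, adjusted p = 0.0172), and chr4:2024101-2024400. The window on chromosome 4 lay 195 bp upstream of the start of AT4G04190, with mCHG of 32.8, 45.2 and 48.7% at 24 h SL against 71.7, 67.8 and 65.3% at 6 h SL (a fall of 23.8 points, adjusted p = 0.0447). CHH methylation of these windows was lower as well, at 28.6% at 24 h SL, against 44.2% at 6 h SL in the NAS3 window and at 43.0% at 24 h SL, against 61.9% at 6 h SL in the other. No CHG window (0) was called without replicate 1 of 24 h SL.

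Summed from 1000 bp before to 200 bp after the start, the CHH calls of 27240 protein-coding genes were tested in the same model, with a minimum difference of 10 points since a long region dilutes a local change. There were 40 upstream regions called lower at 24 h SL (0.147%) and 0 called higher, with 434 higher at an unadjusted p below 0.05 and 115 called lower and 0 higher by limma. The dispersion prior of this test has a trend that was chosen after seeing the data, and with a prior without it, taken from regions at 5 to 95%, 0 upstream regions were called. Over all 27240 the median change was -0.00804 points, and 3973 regions had 10% CHH or more at 6 h SL. The 40 fell by 10.9 to 19.9 points, and their groups did not overlap, as was the case with a lower 24 h SL in 9.56% of all upstream regions. Without replicate 1 of 24 h SL 29 were called (25 of the 40), and without replicate 2 of 24 h SL 6. Leaving out replicate 3 of 24 h SL gave 10, replicate 1 of 6 h SL 14, replicate 2 of 6 h SL 55 and replicate 3 of 6 h SL 17. The median level of the 40 was 38.2% at 24 h SL, against 51.3% at 6 h SL, with 47.5% at 0 h, 47.4% at 48 h S and 25.9% at 48 h SL.

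The largest fall upstream of a gene was at ESM1, an epithiospecifier modifier that acts in the breakdown of glucosinolates, the defence compounds of the cabbage family. Its upstream region (chr3:4728399-4729598) had 50, 56.7 and 56.5% at 24 h SL against 78.1, 74.0 and 75.7% at 6 h SL, a fall of 19.9 points (adjusted p = 0.0056). The groups lay far apart, and 0 h and 48 h S had 66.3 to 83.4%. AT4G19270, also named above for its window, had 36.9, 46.3 and 56.3% at 24 h SL against 67.6, 75.9 and 64.2% at 6 h SL over the whole region (a fall of 19.3 points, adjusted p = 0.00303).

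ABCG41, an ABC transporter of the pleiotropic drug resistance kind, had 42.1, 44.7 and 39.1% at 24 h SL against 59.1, 53.2 and 64.0% at 6 h SL (a fall of 16.8 points, adjusted p = 0.00786). AT1G67750, of the pectate lyase family that cleaves cell wall pectin, had 34.99, 45.5 and 41.3% at 24 h SL against 59.6, 50.9 and 61.7% at 6 h SL (a fall of 16.5 points, adjusted p = 0.00786). AT1G17910, another gene of the wall-associated kinase family, had 32.8, 30.3 and 30.1% at 24 h SL against 48.8, 44.5 and 43.8% at 6 h SL (a fall of 14.6 points, adjusted p = 0.0105). The libraries of 24 h SL were close together at AT1G17910, and in all 3 genes the groups were separated.

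AT1G78740, an RNI-like gene, had the smallest adjusted p among the 10 genes with the largest falls, with 43.2, 38.6 and 41.8% at 24 h SL against 62.7, 49.9 and 61.9% at 6 h SL (a fall of 16.9 points, adjusted p = 0.000659). AT5G17600 had 26.6, 38.3 and 42.0% at 24 h SL against 58.0, 51.7 and 52.9% at 6 h SL over its whole upstream region (a fall of 16.4 points, adjusted p = 0.0056). The other genes of the 10 with the largest falls were AT3G50250, AT5G41780 and AT4G39060, with falls of 17.8, 16.3 and 14.2 points. The expression of these genes was not analysed here.

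Lists of genes of DNA methylation and of the hormone pathways of germination were looked up among the upstream regions. They held 18 genes of RdDM, 11 of methylation maintenance, 4 demethylases, 3 genes known to be silenced by methylation and 17 genes of abscisic acid and gibberellin. Of the 53, 0 were called in the quasi-binomial model and 0 by limma, and 2 had an unadjusted p below 0.05, both lower at 24 h SL and both among the genes known to be silenced by methylation. Over all upstream regions 0.147% were called lower and 2275 of 27240 had an unadjusted p below 0.05, so a count of 0 in 53 is near the background and is no result about these genes. The median change was -0.124 points over the RdDM genes, -0.186 points over the maintenance genes, -0.00374 points over the demethylases, -4.05 points over the silenced genes and 0.105 points over the hormone genes, against -0.00804 points over all genes tested. Most members had hardly any CHH methylation before the start to lose, with a median level at 6 h SL of 0.339% in the RdDM genes and 0.254% in the hormone genes.

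Genes of these lists with methylated upstream regions did not pass the test. SDC, an F-box gene silenced through methylated repeats before its start, had 31.2, 25.6 and 24.5% at 24 h SL against 31.9, 30.03 and 38.9% at 6 h SL (adjusted p = 0.341). FWA, a homeodomain gene silenced in the same way, had 13.4, 13.2 and 15.5% at 24 h SL against 14.4, 19.3 and 19.7% at 6 h SL (adjusted p = 0.560). At MET1 the values were 14.9, 18.5 and 13.6% at 24 h SL against 23.8, 21.9 and 17.3% at 6 h SL (adjusted p = 0.600), and the groups overlapped in each of these 3 genes. HEN1, which methylates small RNAs, had the highest level of the RdDM list, with 17.1, 19.1 and 19.3% at 24 h SL against 19.9, 20.3 and 23.3% at 6 h SL (adjusted p = 0.904). Among the demethylases ROS1 was the highest, at a mean of 2.93% at 24 h SL, against 3.22% at 6 h SL (adjusted p = 0.941), and the hormone genes had differences between -0.204 and 0.376 points.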

How the data were processed

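MethylC-seq libraries of the 15 samples were deposited as a table of methylated and unmethylated read counts per cytosine. According to the submitters' processing notes and the study's methods, the authors trimmed reads with Trim Galore 0.4.2, mapped them to TAIR10 with Bismark 0.16.3 and removed duplicates before deriving these deposited counts. Duplicates were thus removed before the counts were made, and the reads of a cytosine can still share a fragment with its neighbours. The deposited lists of differentially methylated regions hold the authors' own comparisons and were not used. Of the columns of per-sample values, 0 were left out.

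The table held 42859750 cytosines, of which 3.00% were without a call. Depth lay between 97.2 and 428.8 M calls per library (M, 1e6). Genes, pseudogenes and sequences were taken from the RefSeq annotation of TAIR10.1. A level is the share of methylated calls, in percent. Windows of 300 bp were tested where at least 3 cytosines had a call in any of the 15 libraries and every library had at least 20 calls. Groups of libraries were compared with exact 2-sided permutation tests. Windows and upstream regions were tested on the counts with a quasi-binomial model with a mean for each time point over all 15 libraries, a dispersion moderated with squeezeVar of limma 3.58.1 with a trend on the level, a quasi-likelihood F test and Benjamini-Hochberg adjustment over all regions tested. The trend was chosen after seeing the data. Without it 9.98% of windows at 40% CHH and above had an unadjusted p below 0.05 between 48 h S and 0 h, and with it 4.99%. Between 6 h SL and 48 h S these shares were 11.2% and 5.78%. In windows below 1% CHH the trend raised the share, from 4.88 to 6.72% between 48 h S and 0 h and from 4.63 to 6.55% between 6 h SL and 48 h S. The comparison, its gene lists and its classes were chosen with earlier results of these data known. The text names the 12 CHH windows and the 10 genes with the largest falls among those called, and every called CG and CHG window. The scripts were tested on simulated data. The alternatives were leaving out each library, a replicate block, other filters, window sizes, priors and minimum differences, limma on transformed levels, thinned calls, and the 6 libraries alone. Python 3.11.15, NumPy 2.4.6, SciPy 1.17.1, R 4.3.3 and matplotlib 3.10.9 were used.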

Additional observations from a re-analysis of the deposited data

How the results depend on the processing

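Of 389 values recomputed under other settings, 328 stayed close to the reported value, 55 moved further from it, 6 lost significance and none reversed. Values were graded as close or moved by the size of the shift, so a value that moved need not have crossed a threshold. Leaving out each library in turn gave falls relative to 6 h SL of -0.836 to -0.650 points in mCHH, -0.568 to -0.420 points in mCHG and -0.472 to -0.299 points in mCG over equal windows. Over all calls, 24 h SL against the 9 earlier libraries gave -1.04 to -0.785 points in mCHH, -1.35 to -0.887 points in mCHG and -1.78 to -1.12 points in mCG. In gene-rich bins the change of mCHH was -0.588 points over all calls and -0.485 points with a bound of 25% protein-coding sequence.

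Without each library in turn 23 to 115 CHH windows, 0 to 4 CHG windows and 0 to 1 CG windows were called lower, 0 to 1 CG windows higher, and 6 to 55 upstream regions lower. With no minimum difference 352 CHH windows (7 higher) and 5 CHG windows were lower and 1 upstream region was higher, and with a minimum of 10 points 300 CHH windows were lower. limma called 249 CHH windows (3 higher), 0 CHG windows, 3 CG windows (1 higher) and 115 upstream regions lower. A fit of the 6 libraries alone called 7 CHG windows, 2 CG windows and 67 upstream regions. A dispersion prior without a trend called 67 upstream regions, and with that prior from regions at 5 to 95% the counts were 54 CHH windows, 1 CHG window and 0 upstream regions. Against the 6 libraries of 0 h and 48 h S the counts were 26, 1 and 2 windows in CHH, CHG and CG and 10 upstream regions, a setting chosen after seeing the data. Windows of 100 bp and of 1000 bp gave 0 called CHH and CG windows, and windows of 100 bp 0 CHG windows. With calls thinned to the shallowest library 1 CHH window and 0 CHG windows were called. The cause of these differences was not tested, apart from the number of samples or calls that a setting removes.

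Across CHH windows, deviations of same-numbered libraries from their group means correlated at -0.0122 to 0.00258, and those of other pairs at -0.0134 to 0.0202. These correlations leave out the mean level of each library, so they cannot tell whether replicate numbers paired library levels. Over equal windows replicate 1 was the highest and replicate 2 the lowest library of both 24 h SL and 6 h SL in each context. This order was not seen at 0 h or 48 h S. With a replicate block 110 CHH windows, 2 CHG windows, 1 CG window and 42 upstream regions were called lower, and the fall of mCHH was -0.747 points. Between replicates of a group the mean chi-square per window was 3.21 to 3.81. It treats calls as independent, whereas calls of a window can share reads. It therefore cannot tell differences between libraries from the sampling of reads.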
